A study of Mus musculus with 32 samples.

Results

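The 9 genes described here encode the sterol regulatory element binding protein (SREBP) transcription factors and the proteins that process them or act beside them. They were chosen by name, as a fixed list of Srebf1, Srebf2, Scap, Insig1, Insig2, Mbtps1, Mbtps2, Nfya and Rxra, and all 9 were found among the 21115 genes on the array. RNA from the livers of 32 male mice (C57Bl/6J) was measured, each on an array of its own that covers whole transcripts. HF/HF offspring came from parents that were both fed a diet with 45% of energy from fat, and LF/HF offspring came from parents both fed 9%, in both cases starting 6 weeks before mating and lasting through lactation. All offspring of both groups were weaned onto the high-fat diet, so no group of mice ate the low-fat diet after weaning. The groups were 7 HF/HF and 7 LF/HF mice of 12 weeks, and 9 HF/HF and 9 LF/HF mice of 28 weeks. Litters are not named in the sources used here, and the p-values treat all mice as independent.

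SREBPs are made as inactive precursors in the membrane of the endoplasmic reticulum. When sterols are low, the escort protein SCAP carries the precursor to the Golgi, where the site-1 and site-2 proteases release the part that enters the nucleus; when sterols are high, the INSIG proteins hold SCAP back. In the liver, SREBP-1c is best known for switching on fatty acid synthesis in the fed state, and SREBP-2 for switching on cholesterol synthesis and uptake. The arrays measured the messenger RNA of these proteins. Cleavage of the precursors and the amount of protein were not analysed here.

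The liver samples carried the hepatocyte markers Alb, Ttr, Apoa1 and others at a list mean of 12.46 to 12.66 on the log2 scale in all 32 mice. In 3 mice the mean of 8 skeletal muscle markers exceeded 4 on the log2 scale, at 4.81 in HF/HF replicate 3 and 9.45 in LF/HF replicate 1 of 12 weeks and 6.76 in LF/HF replicate 8 of 28 weeks, whereas the highest of the other mice was 2.89. All 5 measured endothelial markers had a negative fold change at 12 weeks, where their mean ran from 6.02 to 6.29 in HF/HF and from 6.19 to 6.54 in LF/HF offspring. The endothelial gene Lyve1 passed the study criterion, which is defined in the next paragraph. In the diet comparisons that criterion called 2.92% of all genes at 12 weeks and 2.15% at 28 weeks. For age in LF/HF offspring all 5 endothelial markers were negative too and 2 were called, where 7.22% of all genes were. Their mean was 5.60 to 6.33 at 28 weeks and 6.19 to 6.54 at 12 weeks, beside the decreases of Scap and Rxra given below. Of 5 measured Kupffer cell and macrophage markers 1 was called lower in HF/HF offspring at 12 weeks and 2 at 28 weeks. Their fold change was negative for 3 at 12 weeks and for 4 at 28 weeks, where their mean ran from 5.44 to 6.20 in HF/HF mice and from 5.42 to 6.42 in LF/HF mice. Of 6 stellate cell markers 1 was called lower at 28 weeks (mean 5.84 to 6.28 in HF/HF mice and 5.85 to 6.43 in LF/HF mice), with 3 positive and 3 negative. Of 6 lymphocyte markers 2 were called higher at 12 weeks (2.40 to 2.61 in HF/HF mice and 2.29 to 2.68 in LF/HF mice). In that list 4 markers had a negative fold change, and the median was -0.083. The part of these cells in the results below was not tested, apart from the values without the 3 muscle-marked mice. In whole liver, fewer cells of a type and less RNA per cell cannot be told apart. Array names fell into 2 series, and each group had 3 to 5 mice in each.

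A gene was called when it met the study criterion of an unadjusted P under 0.05 with a fold change over 1.2 (0.263 on the log2 scale). At 12 weeks 2 of the 9 genes were called between HF/HF and LF/HF offspring: Insig2 was higher in HF/HF and Nfya was lower. The criterion called 2.92% of all 21115 genes in that comparison. At 28 weeks 1 of the 9 was called, Rxra, which was higher in HF/HF offspring, against 2.15% of all genes. The difference between the ages (the diet effect at 28 weeks minus that at 12 weeks) was called for Mbtps1 and Rxra, 2 of the 9, against 4.19% of all genes. With so few genes a single call moves the share of members from 11.1% to 22.2%, so the counts describe these genes and are no measure of the set. After Benjamini-Hochberg adjustment over all genes, limma gave no adjusted p under 0.05 in these 3 comparisons, neither for a member nor any other gene. An unadjusted P under 0.05 was found for 998, 1083 and 1009 of the 21115 genes. With no difference between groups a share of about 0.05 of all genes would reach that limit. The 3 counts lie near that share. The smallest adjusted p of a member was 0.999 at 12 weeks, 0.934 at 28 weeks and 0.974 for the difference. The median log2 fold change of the 9 genes was -0.129 at 12 weeks and 0.005 at 28 weeks, beside 0.000386 and -0.00357 over all genes. The median size of the change, sign ignored, was 0.145 on the log2 scale at both ages. Over all genes it was 0.0797 at 12 weeks and 0.0734 at 28 weeks. These sizes were not matched for spread between mice, which alone can enlarge them. The spread of Srebf1, Insig2 and Insig1 exceeded that of 94%, 92% and 91.2% of genes at or above the median level. For Mbtps1 and Mbtps2 these shares were 15.7% and 43%.

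**Figure D1:**
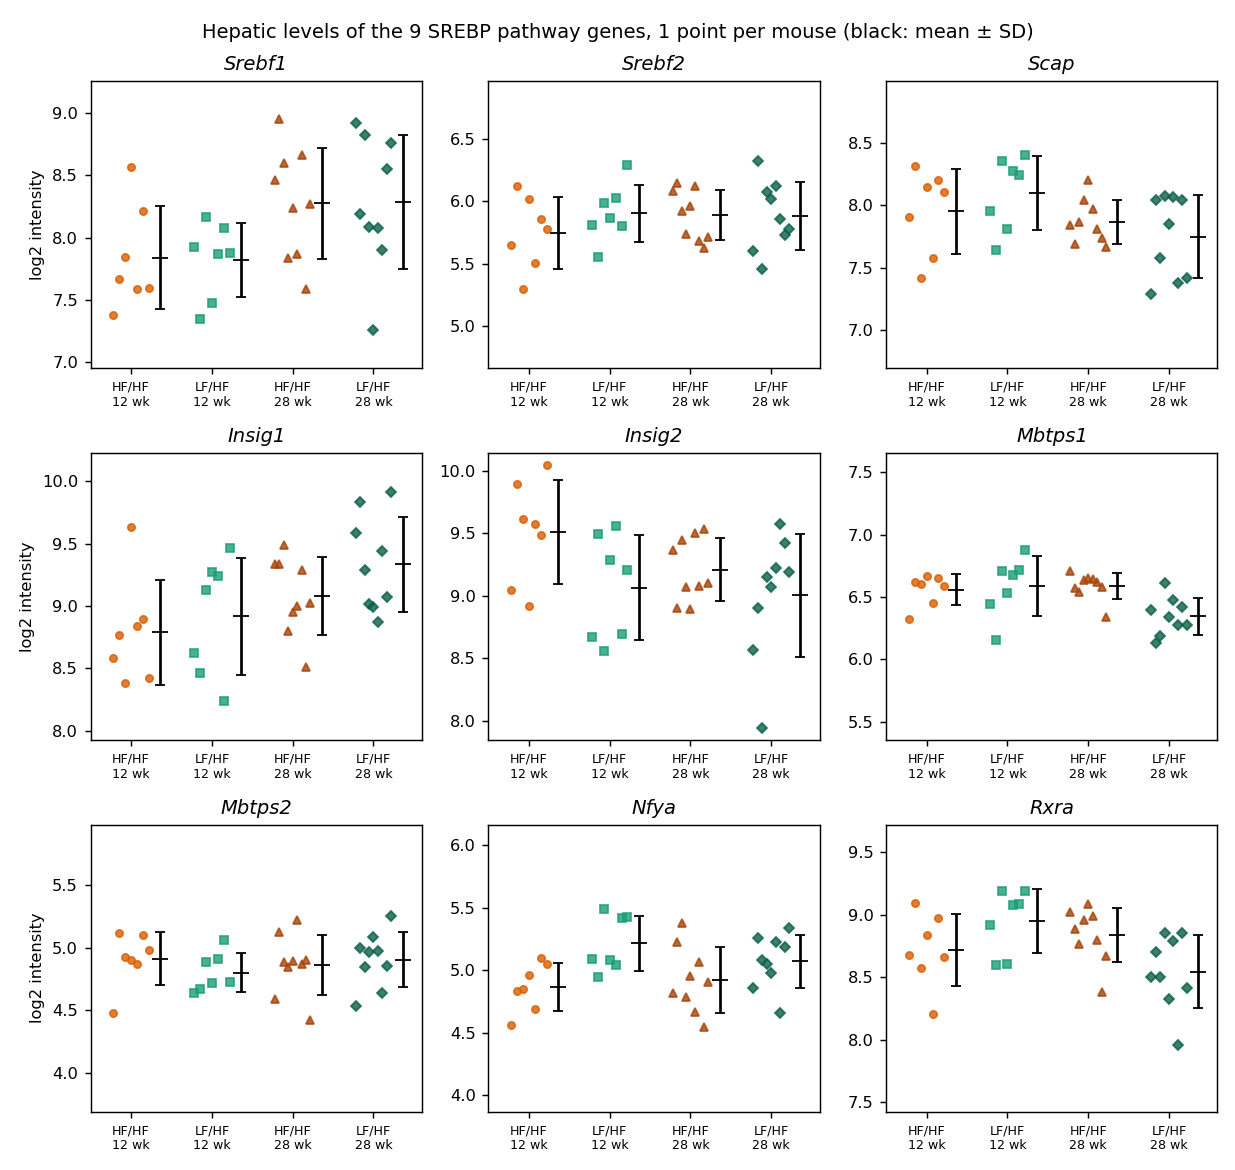
Log2 intensity of each of the 9 genes (vertical axis, every panel spanning the same range) in every mouse by group (horizontal axis), with black bars for the mean ± SD of 7 or 9 mice. The groups overlap in every panel; HF/HF mice of 12 weeks lie low for Nfya and high for Insig2, and LF/HF mice of 28 weeks lie low for Mbtps1 and Rxra.

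**Figure D2:**
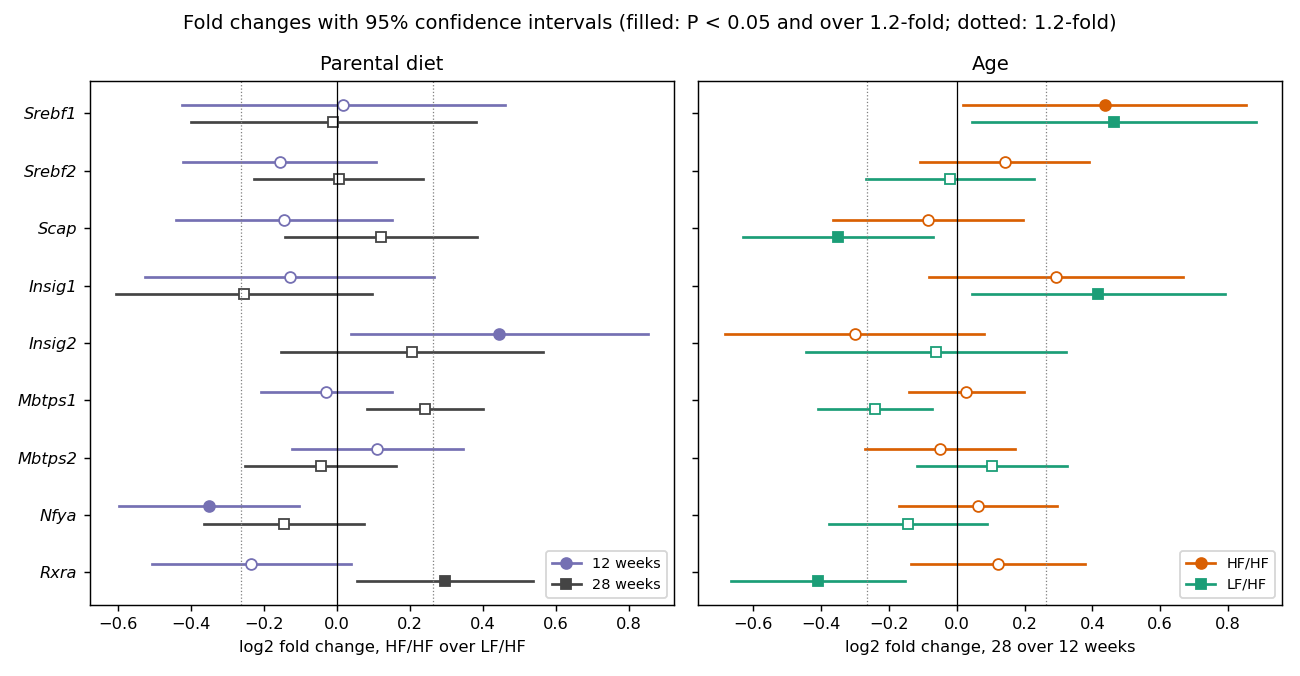
Log2 fold change with 95% confidence interval for each gene, for parental diet at 12 and at 28 weeks (left, HF/HF over LF/HF) and for age within each diet group (right, 28 over 12 weeks). Filled symbols met the study criterion; the diet effect on Rxra lies at -0.23 at 12 weeks and 0.30 at 28 weeks.

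Srebf1 encodes SREBP-1a and SREBP-1c, which are made from different start sites of the same gene, and Srebf2 encodes SREBP-2. Srebf1 lies on chromosome 11 from 60199084 to 60224186 and Srebf2 on chromosome 15 from 82147269 to 82205379 (GRCm38.p6). The array held 1 probe set per gene, so the start sites of Srebf1 were not separated. The RefSeq promoter windows used here cover 3 start sites for Srebf1 and 1 for Srebf2. The 250 bases upstream of 2 of these are shown because they hold letters of elements through which other members act. The Srebf1 window is chr11:60210472-60210721 on the minus strand and the Srebf2 window is chr15:82147019-82147268 on the plus strand. Capitals mark CCAAT, the box bound by NF-Y, of which Nfya encodes a subunit, on either strand (ATTGG on the reverse), together with GGTTACT, the first letters of elements known to be bound by LXR with its partner RXR, and ATCACCCCA, letters of a sterol regulatory element.
Srebf1: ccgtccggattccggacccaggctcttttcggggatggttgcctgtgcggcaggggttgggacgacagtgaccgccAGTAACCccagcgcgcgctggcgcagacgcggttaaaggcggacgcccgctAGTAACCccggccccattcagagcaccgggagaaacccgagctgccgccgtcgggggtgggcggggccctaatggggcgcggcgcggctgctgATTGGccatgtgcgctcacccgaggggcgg
Srebf2: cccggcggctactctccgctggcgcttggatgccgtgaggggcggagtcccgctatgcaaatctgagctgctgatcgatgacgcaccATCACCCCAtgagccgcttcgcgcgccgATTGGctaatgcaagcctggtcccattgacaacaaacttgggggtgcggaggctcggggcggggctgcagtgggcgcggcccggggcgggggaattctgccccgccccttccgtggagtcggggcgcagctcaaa
The Srebf1 window held the LXR element letters 2 times on the reverse strand, at 174 and 123 bases before the start, and a CCAAT box at 30 bases. The Srebf2 window held ATCACCCCA at 163 bases and a CCAAT box at 135 bases before the start. Of 32851 RefSeq promoter windows of this length, 33.8% held CCAAT on either strand, 0.24% held ATCACCCCA and 1.88% held GGTTACT. The motifs CACGTG and GGGCGG, searched in the same way on both strands, were in 6.02% and 32.7% of windows, and no match of these 5 motifs in a member's window overlapped another. A match is a run of letters and was not tested as a binding site.

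Srebf1 and Srebf2 messenger RNA did not pass the criterion between HF/HF and LF/HF offspring at either age. At 12 weeks Srebf1 had a lowest, median and highest log2 intensity of 7.38, 7.67 and 8.57 in HF/HF offspring, against 7.35, 7.88 and 8.16 in LF/HF offspring. At 28 weeks these were 7.59, 8.27 and 8.95 in HF/HF and 7.26, 8.19 and 8.92 in LF/HF offspring. The groups overlapped at each age, and at 12 weeks 2 of 7 HF/HF mice lay above the highest LF/HF mouse. The log2 fold change of Srebf1 was 0.02 (95% CI -0.425 to 0.461) at 12 weeks and -0.01 (-0.401 to 0.381) at 28 weeks, intervals that reach beyond 1.2-fold in both directions. Srebf2 ran from 5.30 to 6.12 (median 5.78) in HF/HF and from 5.55 to 6.29 (median 5.87) in LF/HF mice of 12 weeks. At 28 weeks it ran from 5.63 to 6.15 (median 5.92) in HF/HF and from 5.46 to 6.33 (median 5.86) in LF/HF mice. The log2 fold change of Srebf2 was -0.16 (SE 0.13, 95% CI -0.421 to 0.107) at 12 weeks and 0.00 (-0.228 to 0.237) at 28 weeks.

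Srebf1 was higher at 28 weeks than at 12 weeks in both diet groups. In HF/HF offspring its mean was 8.27 ± 0.44 at 28 weeks and 7.84 ± 0.41 at 12 weeks (SD, n = 9 and 7), a 1.35-fold increase (log2 0.44, SE 0.21). In LF/HF offspring it was 8.28 ± 0.53 at 28 weeks and 7.82 ± 0.30 at 12 weeks, a 1.38-fold increase (log2 0.46, SE 0.21). Both met the criterion, with an adjusted p = 0.661 in HF/HF and an adjusted p = 0.339 in LF/HF offspring in limma. Two-sided exact permutation tests over the mice gave p = 0.066 in HF/HF offspring and p = 0.0622 in LF/HF. Of the 9 mice of 28 weeks, 7 in HF/HF and 8 in LF/HF lay above the mean of the younger mice. Srebf1 was the only member called for age in HF/HF offspring, where 4.1% of all genes were called. The call was lost in HF/HF offspring when any 1 of 9 of the 16 mice was left out (log2 fold change 0.35 to 0.44), namely replicates 1, 2, 3, 5 and 7 of 12 weeks and 1, 2, 3 and 7 of 28 weeks. In LF/HF offspring leaving out any of 6 mice, replicates 2 and 4 of 12 weeks and 1, 3, 8 and 9 of 28 weeks, lost the call too, at 0.38 to 0.43. Without the 3 muscle-marked mice the criterion was met in neither diet group, at 0.44 (SE 0.22) in HF/HF offspring and 0.45 (SE 0.23) in LF/HF. Within array series 1 the effect was 0.60 (SE 0.33) in HF/HF offspring and 0.44 (SE 0.34) in LF/HF, and neither met the criterion. Within series 2 it was 0.32 (SE 0.23) in HF/HF offspring, short of the criterion, and 0.50 (SE 0.22) in LF/HF, where it met it. The clock genes, whose phase is described below with Insig2, also moved with age in HF/HF offspring, where all 4 dawn genes were called lower and 6 of 11 dusk genes higher at 28 weeks, and none of the 15 was called in LF/HF. With that phase as a covariate the age effect on Srebf1 was 0.01 (SE 0.20) in HF/HF offspring, no longer meeting the criterion, and 0.37 (SE 0.17) in LF/HF, still meeting it. Srebf2 did not pass the criterion for age, with log2 fold changes of 0.14 (SE 0.12) in HF/HF offspring and -0.02 (SE 0.12) in LF/HF.

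Scap encodes the escort protein that senses sterols and carries SREBP precursors to the Golgi. It lies on chromosome 9 from 110333288 to 110384949 (GRCm38.p6). At 12 weeks Scap had a lowest, median and highest log2 intensity of 7.41, 8.11 and 8.32 in HF/HF and of 7.64, 8.24 and 8.40 in LF/HF offspring. At 28 weeks these were 7.66, 7.84 and 8.21 in HF/HF and 7.29, 7.85 and 8.07 in LF/HF offspring. The groups overlapped at both ages, and the LF/HF mice of 28 weeks were more widely spread than the HF/HF mice of that age (a difference that was not tested). The diet effect on Scap was -0.15 (SE 0.15) at 12 weeks and 0.12 (SE 0.13) at 28 weeks, and neither met the criterion (p = 0.407 and p = 0.342 in two-sided exact permutation tests). In LF/HF offspring Scap was lower at 28 than at 12 weeks, at 7.75 ± 0.33 against 8.10 ± 0.30 (SD, n = 9 and 7), a 1.28-fold decrease that met the criterion (log2 -0.35, SE 0.14, adjusted p = 0.268 in limma, p = 0.0469 in a two-sided exact permutation test). All 9 mice of 28 weeks lay below the mean of the younger mice. The decrease was -0.22 (SE 0.21) within array series 1, where it did not meet the criterion, and -0.46 (SE 0.18) within series 2, where it did. In HF/HF offspring the age effect was -0.08 (SE 0.14) on the log2 scale.

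Insig1 and Insig2 encode the 2 proteins that retain SCAP in the endoplasmic reticulum. Insig1 is itself a known SREBP target, while a form of mouse Insig2 messenger RNA is known to fall in the liver when insulin rises. Insig1 lies on chromosome 5 from 28071412 to 28078662 and Insig2 on chromosome 1 from 121304353 to 121332662 (GRCm38.p6). The RefSeq promoter windows used here cover 1 start site for Insig1 and 3 for Insig2, which the probe set did not separate. Shown are the 250 bases upstream of Insig1 (chr5:28071162-28071411, plus strand) and of the outermost of these Insig2 starts (chr1:121332590-121332839, minus strand). They set these related genes side by side, with CCAAT on either strand in capitals. This Insig2 window overlaps the gene as bounded above.
Insig1: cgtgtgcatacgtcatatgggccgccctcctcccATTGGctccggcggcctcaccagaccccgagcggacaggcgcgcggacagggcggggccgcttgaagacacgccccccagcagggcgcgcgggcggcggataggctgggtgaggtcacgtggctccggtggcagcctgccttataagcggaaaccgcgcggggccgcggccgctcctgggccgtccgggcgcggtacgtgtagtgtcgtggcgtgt
Insig2: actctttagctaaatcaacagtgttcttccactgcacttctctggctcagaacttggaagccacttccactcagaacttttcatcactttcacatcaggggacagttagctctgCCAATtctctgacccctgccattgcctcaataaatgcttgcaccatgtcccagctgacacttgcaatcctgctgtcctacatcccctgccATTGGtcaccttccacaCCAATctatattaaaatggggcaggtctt
The Insig1 window held 1 CCAAT box, at 216 bases before the start, 1 CACGTG at 101 bases and 3 copies of GGGCGG. This Insig2 window held 3 CCAAT boxes, at 136, 46 and 29 bases, and none of the other 4 motifs. Over all 17 RefSeq windows of the 9 genes, CCAAT was found in 6 windows of 5 genes (Srebf1, Srebf2, Insig1, Insig2 and Nfya). That is near the 33.8% of all 32851 windows that held it, and the other Insig2 windows held no CCAAT. ATCACCCCA was only in the window of Srebf2 and GGTTACT only in 1 of Srebf1, beside 0.24% and 1.88% of all windows.

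Insig2 was higher in HF/HF offspring at 12 weeks. Its lowest, median and highest log2 intensity were 8.92, 9.57 and 10.05 in HF/HF, against 8.56, 9.20 and 9.56 in LF/HF offspring. In HF/HF offspring 4 of 7 mice exceeded the highest LF/HF mouse, and replicates 1 and 4 lay below the LF/HF mean of 9.07. The difference was 1.36-fold (log2 0.45, SE 0.20) and met the criterion in limma (adjusted p = 0.999), with p = 0.0688 in a two-sided exact permutation test over the mice. The call was lost without HF/HF replicate 2 or 7 or LF/HF replicate 1, 3 or 6, at 0.36 to 0.38 on the log2 scale. It was lost as well without the 3 muscle-marked mice, at 0.36 (SE 0.21), and within array series 1, at 0.46 (SE 0.29), and was met within series 2, at 0.52 (SE 0.19). At 28 weeks Insig2 ran from 8.89 to 9.53 (median 9.10) in HF/HF offspring and from 7.94 to 9.58 (median 9.15) in LF/HF. The log2 fold change of 0.21 (SE 0.18) did not meet the criterion (exact permutation p = 0.301, two-sided). It was 0.47 (SE 0.26) within array series 1 and -0.13 (SE 0.17) within series 2, and met the criterion in neither. The diet effects of the 2 ages differed by -0.24 (SE 0.27), which did not meet the criterion. That difference was 0.01 (SE 0.39) within series 1, and -0.65 (SE 0.26) within series 2, where it met it. The age effect of Insig2 in HF/HF offspring was -0.30 (SE 0.19) and did not meet the criterion, and without replicate 4 of 12 weeks it was -0.40 and met it. It was -0.17 (SE 0.27) within series 1, and -0.48 (SE 0.18) within series 2, where it met it too. The single LF/HF mouse at 7.94, replicate 3 of 28 weeks, was the lowest of all 32.

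Insig2 moved with the clock phase of a mouse, computed as the average log2 level of 4 clock genes with a peak near dawn less the average of 11 with a peak near dusk. At 12 weeks the phase had a lowest, median and highest value of -1.94, -0.29 and 0.66 in HF/HF, against -2.44, -1.49 and 0.26 in LF/HF offspring. All 4 dawn genes had a positive and all 11 dusk genes a negative fold change, of which Npas2 (log2 0.86, SE 0.29) rose and Dbp (-0.89, SE 0.38) and Per1 (-0.66, SE 0.30) fell in HF/HF offspring by the study criterion. At 28 weeks none of the 15 clock genes met the criterion. With the clock phase as a covariate the diet effect on Insig2 at 12 weeks was 0.11 (SE 0.15) and no longer met the criterion. The time at which each liver was taken is not given in the sources used here.

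Insig1 did not meet the criterion for diet. At 12 weeks its lowest, median and highest log2 intensity were 8.39, 8.77 and 9.63 in HF/HF, against 8.24, 9.13 and 9.46 in LF/HF offspring. Only HF/HF replicate 4 exceeded the LF/HF mean of 8.92 in that comparison, and the next HF/HF mouse was at 8.90. At 28 weeks Insig1 was 8.51, 9.02 and 9.49 in HF/HF, against 8.87, 9.29 and 9.91 in LF/HF offspring, and the LF/HF mean was exceeded by 2 of 9 HF/HF mice. The log2 fold change was -0.13 (SE 0.20) at 12 weeks and -0.25 (SE 0.17) at 28 weeks, with two-sided exact permutation p = 0.59 and p = 0.138. In LF/HF offspring Insig1 rose with age by 1.34-fold, to 9.34 ± 0.38 at 28 weeks, against 8.92 ± 0.47 at 12 weeks (SD, n = 9 and 7), which met the criterion (log2 0.42, SE 0.18, adjusted p = 0.336 in limma, p = 0.0701 in a two-sided exact permutation test). Leaving out any of 6 LF/HF mice, replicates 1, 2 and 6 of 12 weeks and 1, 2 and 9 of 28 weeks, lost the call, at 0.31 to 0.39. The increase was 0.61 (SE 0.26) within array series 1, where it met the criterion, and 0.27 (SE 0.24) within series 2, where it did not. In HF/HF offspring the age effect was 0.29 (SE 0.18) and did not meet the criterion, and without replicate 4 of 12 weeks it was 0.43 and met it.

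Mbtps1 and Mbtps2 encode the site-1 and site-2 proteases of the Golgi, which cut SREBPs one after the other and also process the stress sensor ATF6. Mbtps1 lies on chromosome 8 from 119508151 to 119558864 and Mbtps2 on chromosome X from 157547822 to 157598715 (GRCm38.p6). Mbtps1 had the narrowest spread of the 9 genes, with an SD within groups of 0.158 on the log2 scale. At 28 weeks its lowest, median and highest log2 intensity were 6.34, 6.62 and 6.71 in HF/HF offspring, against 6.13, 6.34 and 6.61 in LF/HF offspring. The LF/HF mean was exceeded by 8 of 9 HF/HF mice, and every LF/HF mouse by 5 of 9. The difference was 1.18-fold (log2 0.24, SE 0.08, adjusted p = 0.934 in limma), with p = 0.00177 in a two-sided exact permutation test, and it missed the criterion on the fold change alone, since 1.18-fold is below 1.2-fold. It was 0.28 (SE 0.12) within array series 1, where it met the criterion, and 0.20 (SE 0.10) within series 2. It met the criterion at 0.27 when HF/HF replicate 9 was left out, and likewise when LF/HF replicate 4 was.

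At 12 weeks Mbtps1 ran from 6.33 to 6.67 (median 6.60) in HF/HF offspring and from 6.15 to 6.88 (median 6.68) in LF/HF, with a log2 fold change of -0.03 (SE 0.09, exact permutation p = 0.781, two-sided). The diet effects of the 2 ages differed by 0.27 (SE 0.12) and met the criterion (adjusted p = 0.974 in limma). That difference fell below the criterion when any 1 of 12 mice was left out (0.22 to 0.26), namely HF/HF replicates 1 and 5 and LF/HF replicates 3, 5, 6 and 7 of 12 weeks, and HF/HF replicates 1 and 5 and LF/HF replicates 2, 3, 7 and 9 of 28 weeks. It was 0.16 (SE 0.19) within array series 1, short of the criterion, and 0.34 (SE 0.15) within series 2, where it met it. It did not meet it with the clock phase as a covariate (0.22, SE 0.12) or with the array series as a block (0.26, SE 0.12). In LF/HF offspring the mean of Mbtps1 was 6.35 ± 0.15 at 28 weeks and 6.59 ± 0.24 at 12 weeks (SD, n = 9 and 7), a 1.18-fold decrease short of the fold limit (exact permutation p = 0.0282, two-sided), against an age effect of 0.03 (SE 0.08) in HF/HF offspring. That decrease met the criterion, at -0.27 to -0.31, when LF/HF replicate 1 or 2 of 12 weeks or 4 of 28 weeks was left out. Mbtps2 had log2 fold changes for diet of 0.11 (SE 0.12) at 12 and -0.04 (SE 0.10) at 28 weeks, and of -0.05 (SE 0.11) in HF/HF offspring and 0.10 (SE 0.11) in LF/HF for age, none of which met the criterion. Its lowest value at 12 weeks, 4.48 in HF/HF replicate 1, stood apart from the next at 4.87.

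Nfya encodes the subunit of the trimeric factor NF-Y that reads the CCAAT box, which often lies next to SREBP sites. It lies on chromosome 17 from 48386885 to 48409820 (GRCm38.p6). At 12 weeks Nfya was lower in HF/HF offspring, with a lowest, median and highest log2 intensity of 4.56, 4.85 and 5.10, against 4.95, 5.09 and 5.49 in LF/HF offspring. None of the 7 HF/HF mice reached the LF/HF mean of 5.21, and 4 of them were below every LF/HF mouse. The difference was a 1.28-fold decrease (log2 -0.35, SE 0.12) that met the criterion (adjusted p = 0.999 in limma), with p = 0.0111 in a two-sided exact permutation test. The criterion was met whichever single mouse was left out, and without the 3 muscle-marked mice (-0.37, SE 0.14). It was met within array series 1 (-0.37, SE 0.17) and not within series 2 (-0.30, SE 0.18). With the clock phase as a covariate the log2 fold change was -0.23 (SE 0.12) and did not meet it. At 28 weeks Nfya ran from 4.54 to 5.38 (median 4.90) in HF/HF offspring and from 4.66 to 5.33 (median 5.08) in LF/HF, a log2 fold change of -0.15 (SE 0.11, exact permutation p = 0.216, two-sided). The effects of the 2 ages differed by 0.21 (SE 0.16), which did not meet the criterion, so a difference between ages was not shown.

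Rxra encodes the retinoid X receptor alpha, the partner of LXR and of several other nuclear receptors of the liver. It lies on chromosome 2 from 27676445 to 27763319 (GRCm38.p6). The diet effect on Rxra had opposite signs at the 2 ages. At 28 weeks its lowest, median and highest log2 intensity were 8.38, 8.89 and 9.09 in HF/HF offspring, against 7.96, 8.50 and 8.85 in LF/HF offspring. As for Mbtps1, 8 of 9 HF/HF mice exceeded the LF/HF mean and 5 of 9 exceeded every LF/HF mouse. The difference was 1.23-fold (log2 0.30, SE 0.12) and met the criterion (adjusted p = 0.934 in limma), with p = 0.0258 in a two-sided exact permutation test. Without LF/HF replicate 7, the mouse at 7.96, it was 0.22 and did not meet it. It was 0.33 (SE 0.13) within array series 1, where it met the criterion, and 0.28 (SE 0.19) within series 2, where it did not.

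At 12 weeks Rxra was 8.21, 8.67 and 9.10 (lowest, median and highest) in HF/HF, against 8.60, 9.08 and 9.19 in LF/HF offspring, a log2 fold change of -0.23 (SE 0.13, exact permutation p = 0.133, two-sided) that did not meet the criterion with all mice. It met it without HF/HF replicate 2, LF/HF replicate 2 or LF/HF replicate 4 (-0.29 to -0.30). The effects of the 2 ages differed by 0.53 (SE 0.18, adjusted p = 0.974 in limma). This difference met the criterion with all mice, whichever single mouse was left out, with the clock phase as a covariate (0.39, SE 0.17) and within both array series, at 0.44 (SE 0.20) in series 1 and 0.66 (SE 0.29) in series 2. Rxra was lower at 28 than at 12 weeks in LF/HF offspring, at 8.54 ± 0.29 against 8.95 ± 0.26 (SD, n = 9 and 7), a 1.33-fold decrease that met the criterion (log2 -0.41, SE 0.13, adjusted p = 0.131 in limma, p = 0.0114 in a two-sided exact permutation test), with all 9 older mice below the mean of the younger ones. In HF/HF offspring it was 8.84 ± 0.22 at 28 weeks and 8.72 ± 0.29 at 12 weeks, and did not meet the criterion. For age in LF/HF offspring 4 of the 9 genes were called (Srebf1 and Insig1 higher, Scap and Rxra lower), where 7.22% of all genes were. After adjustment over all genes in limma, 166 genes had an adjusted p under 0.05 for age in LF/HF offspring. For age in HF/HF offspring 10 genes did, and no member was among them in either group.

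**Figure D3:**
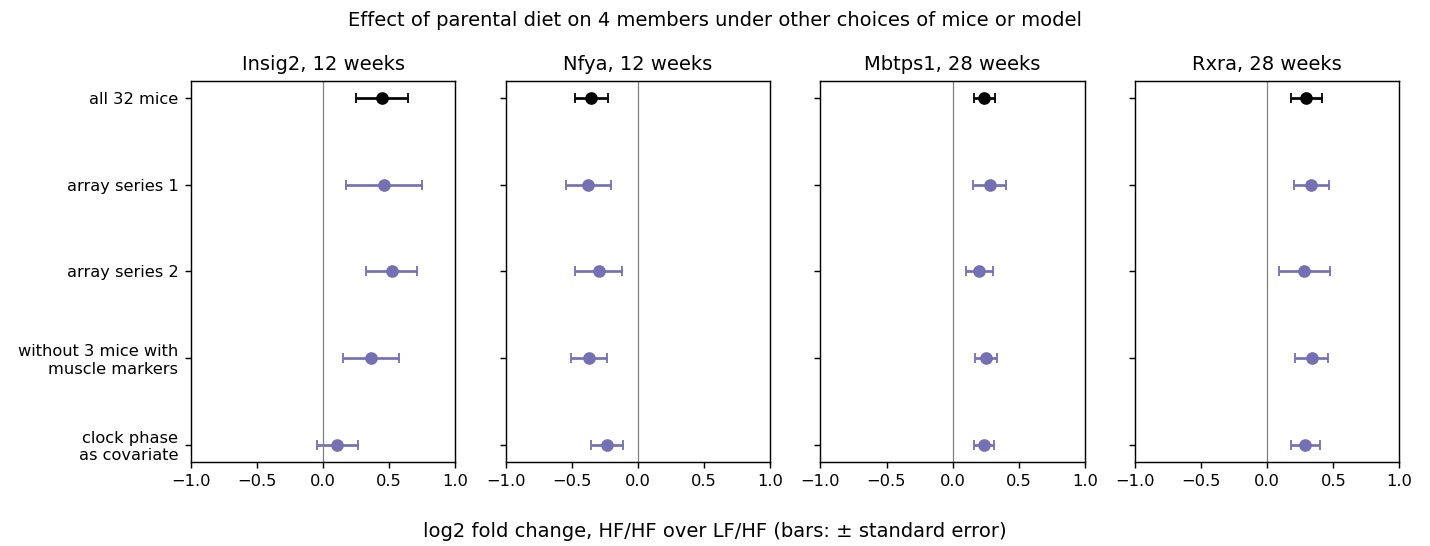
Log2 fold change of HF/HF over LF/HF offspring (horizontal axis, bars ± standard error) for Insig2 and Nfya at 12 weeks and Mbtps1 and Rxra at 28 weeks, with all 32 mice, within each array series, without the 3 muscle-marked mice and with the clock phase as a covariate. The sign held in each of these rows; Insig2 lay at 0.45 with all mice and at 0.11 with the clock phase as a covariate.

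The genes that SREBPs switch on were taken as 2 lists, chosen with earlier results of these data known. Of 21 measured sterol targets of SREBP-2, 3 were called at 12 weeks and 5 at 28 weeks, all lower in HF/HF offspring, against 2.92% and 2.15% of all genes called in either direction. Their median log2 fold change was -0.257 at 12 weeks and -0.338 at 28 weeks, and 17 and 19 of the 21 had a negative sign. Among those called were Stard4, a cholesterol carrier (-0.40, SE 0.17), and Sqle, squalene epoxidase (-1.01, SE 0.48), at 12 weeks. At 28 weeks they included Fdft1, squalene synthase (-0.42, SE 0.17), and Cyp51, lanosterol demethylase (-0.68, SE 0.28). Of 18 genes listed as fatty acid targets of SREBP-1c, 3 were called at 12 weeks, all lower in HF/HF offspring. They were Lpin1, a phosphatidate phosphatase (-0.84, SE 0.19), Aacs, which activates acetoacetate (-1.24, SE 0.33), and Elovl6, a fatty acid elongase (-0.54, SE 0.25). The study had picked Lpin1 and Aacs from these same arrays as differentially expressed at 12 weeks. The calls of Lpin1 and Aacs were therefore known before the list was made. None of the 18 was called at 28 weeks, where Thrsp (-0.79, SE 0.42), Fasn (-0.42, SE 0.23) and Acly (-0.35, SE 0.21) came nearest. The list's median was -0.239 at 12 weeks and -0.171 at 28 weeks. These values stand beside a log2 fold change of Srebf1 and Srebf2 between -0.16 and 0.02 in the same comparisons.

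With age both lists ran upward. Of the sterol targets 4 were called in HF/HF offspring and 7 in LF/HF, all higher at 28 weeks, and of the fatty acid targets 4 in HF/HF offspring and 2 in LF/HF, all higher too. Over all genes 4.1% were called for age in HF/HF offspring and 7.22% in LF/HF. The mean of the sterol targets was 6.91 ± 0.33 at 28 weeks and 6.65 ± 0.31 at 12 weeks in HF/HF offspring, and 7.24 ± 0.44 at 28 weeks and 6.90 ± 0.52 at 12 weeks in LF/HF offspring (SD, n = 9 and 7). The mean of the fatty acid targets was 7.97 ± 0.30 at 28 weeks and 7.58 ± 0.26 at 12 weeks in HF/HF offspring, and 8.14 ± 0.35 at 28 weeks and 7.87 ± 0.43 at 12 weeks in LF/HF offspring.

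Genes for proteins that work with the 9 members were taken as lists too, beside 2.92% of all genes called at 12 weeks and 2.15% at 28 weeks. These lists are too short to tell their share of calls from that of all genes. None of 22 genes listed as escort and retention partners was called at either age. That list held genes for the coat that carries SCAP out of the endoplasmic reticulum, for the turnover of INSIG and SCAP, and others such as Kpnb1, Fbxw7 and Paqr3. Nearest came Sec24d (log2 0.20, SE 0.12) at 12 weeks and Sec24b (0.18, SE 0.09), both cargo adaptors of the coat, at 28 weeks. None of 9 other substrates of the 2 proteases was called, with Creb3l1, a membrane-bound stress factor, nearest at both ages (0.25, SE 0.15, at 12 weeks and 0.20, SE 0.13, at 28 weeks). Among 12 co-factors at SREBP sites none was called. Nfyc, the NF-Y subunit that pairs with Nfyb, was -0.41 (SE 0.27) at 12 weeks and -0.32 (SE 0.23) at 28 weeks, and the co-activator Ppargc1b was 0.26 (SE 0.12) at 28 weeks, just under the fold limit. Of 15 relatives and partners of RXR, Pparg, a lipid-storage receptor, was called at 12 weeks (0.56, SE 0.23) and none at 28 weeks, where Rara was nearest (0.20, SE 0.10). The bile acid receptor gene Nr1h4 was -0.22 (SE 0.11) at 12 weeks and -0.17 (SE 0.10) at 28 weeks. Of 14 genes that respond to fasting and feeding, Txnip (-0.51, SE 0.14) and Angptl4 (-0.44, SE 0.15) fell in HF/HF offspring at 12 weeks and none was called at 28 weeks.

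How far the members moved together from mouse to mouse was measured as the correlation of log2 intensities over the 32 mice after the mean of each group was taken off, with two-sided p-values from 100000 permutations within groups. Of 36 pairs, 9 had an adjusted p under 0.05 over the pairs. The share among pairs of other genes was not computed, so the count is no measure of the set. Scap and Rxra each had a higher r with a gene outside the 9, at 0.89 with Plxnb2 and 0.93 with Sidt2. The closest was Scap with Rxra (r = 0.80, rho = 0.84, permutation p = 1e-05, the smallest these permutations can give, adjusted p = 0.00036). It was 0.76 and 0.92 within the 2 array series and 0.87 without the 2 mice farthest from the median of Scap. Mbtps1 went with both, at r = 0.56 with Scap (rho = 0.65, permutation p = 0.00203, adjusted 0.0104) and 0.58 with Rxra (rho = 0.71, permutation p = 0.00092, adjusted 0.00828). Srebf2 went with Scap (r = 0.71, rho = 0.68, permutation p = 7e-05, adjusted 0.00126) and with Rxra (r = 0.57, rho = 0.57, permutation p = 0.00182, adjusted 0.0104). Each of these 5 pairs had a positive r in all 4 groups. Srebf2 with Mbtps1, the remaining pair of these 4 genes, did not pass the adjustment (r = 0.44, rho = 0.45, permutation p = 0.0169, adjusted 0.057).

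**Figure D4:**
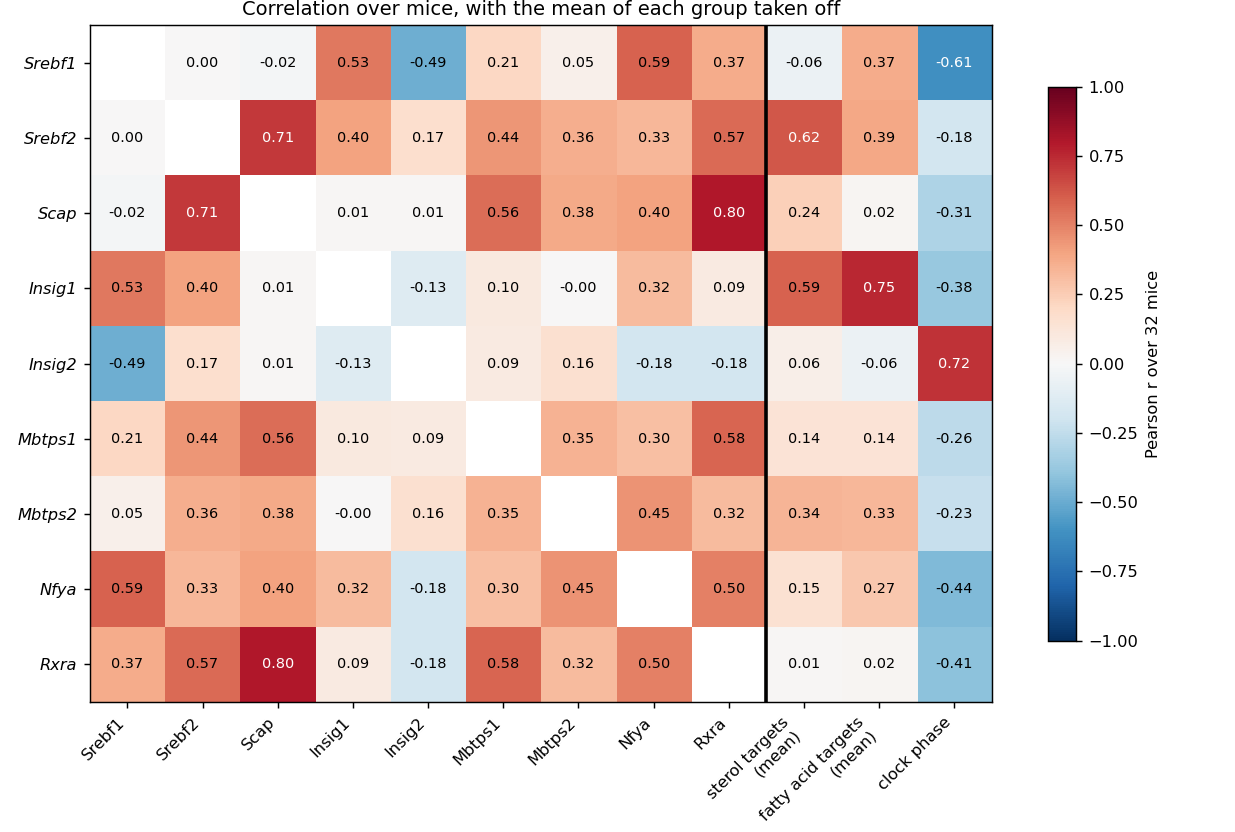
Pearson r over 32 mice, with group means taken off, between the 9 genes (left of the black line) and between each gene and the mean of the sterol targets, the mean of the fatty acid targets and the clock phase (right of it). Red is positive and blue negative; Scap and Rxra reach 0.80, and Srebf1 and Insig2 lie at -0.49.

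Srebf1 moved with other members. It correlated with Nfya (r = 0.59, rho = 0.63, permutation p = 0.00068, adjusted 0.00816) and with Insig1 (r = 0.53, rho = 0.54, permutation p = 0.00198, adjusted 0.0104), and its r with Srebf2 was 0.00. Within the 2 array series r with Insig1 was 0.69 and 0.30, and 0.42 without the 2 mice farthest from the median of Srebf1. Within single groups r with Insig1 ran from 0.01 to 0.89. Srebf1 and Insig2 ran in opposite directions (r = -0.49, rho = -0.45, permutation p = 0.00805, adjusted 0.0322), with a negative r in all 4 groups and -0.59 and -0.60 within the array series. HF/HF replicate 4 of 12 weeks showed the contrast in 1 mouse: it had the highest Srebf1 and Insig1 and the lowest Insig2 of its group, and the highest mean of both target lists. Nfya with Rxra was the remaining pair (r = 0.50, rho = 0.42, permutation p = 0.00455, adjusted 0.0205).

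Of 27 relations between a member and a target mean or the clock phase, 6 had an adjusted p under 0.05. The share for genes other than the members was not computed. Insig1 followed the mean of the fatty acid targets (r = 0.75, rho = 0.80, permutation p = 1e-05, adjusted 0.00027). That r was 0.72 and 0.79 within the array series and 0.76 without the 2 outermost mice. Insig1 also followed the mean of the sterol targets (r = 0.59, rho = 0.59, permutation p = 0.00156, adjusted 0.00842). Within single groups r with the mean of the fatty acid targets ran from 0.40 to 0.91. With the mean of the sterol targets r ran from -0.00 to 0.89 and was positive in 3 groups. Insig2 had r = -0.06 and 0.06 with these means and followed the clock phase (r = 0.72, rho = 0.69, permutation p = 3e-05, adjusted 0.000405), at 0.89 and 0.60 within the array series, 0.64 without the 2 outermost mice and 0.78 without the 3 muscle-marked mice. Srebf1 ran against the clock phase (r = -0.61, rho = -0.64, permutation p = 0.00017, adjusted 0.00153; -0.61 and -0.64 within the array series), as did Nfya (r = -0.44, rho = -0.47, permutation p = 0.00923, adjusted 0.0415). Srebf2 followed the sterol targets (r = 0.62, rho = 0.57, permutation p = 0.00044, adjusted 0.00297), at 0.71 and 0.40 within the array series, whereas Srebf1 had r = -0.06 with them. With the fatty acid targets Srebf1 had r = 0.37 and rho = 0.34 (permutation p = 0.0438, adjusted 0.131), at 0.54 and 0.07 within the array series. The 3 measures were themselves related, with r = 0.78 between the target means and -0.46 between the fatty acid targets and the clock phase.

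**Figure D5:**
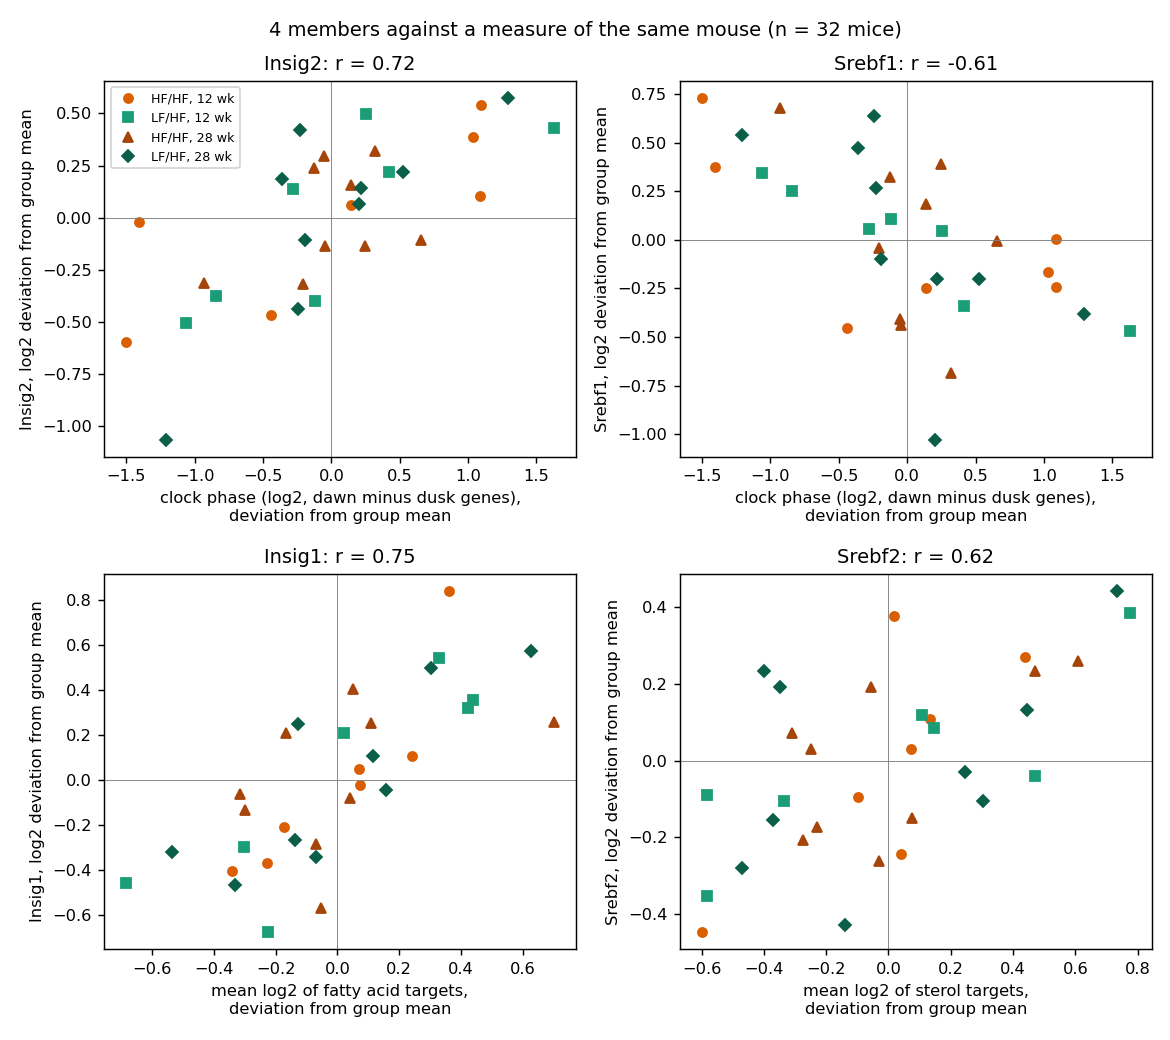
Deviation of Insig2 and Srebf1 from their group mean against that of the clock phase, of Insig1 against that of the mean of the fatty acid targets, and of Srebf2 against that of the mean of the sterol targets, all on the log2 scale, 1 point per mouse and 1 symbol per group. Insig2 rises and Srebf1 falls along the clock phase (r = 0.72 and -0.61), and each group contributes to both.

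The genes whose pattern over the 32 mice was most like that of a member, among 10113 other genes at or above the median level, are given as a description with no test. Fasn, fatty acid synthase and a listed fatty acid target, was among those most like Insig1 (r = 0.81). Srebf1 was most like Mid1ip1, an activator of acetyl-CoA carboxylase and a listed fatty acid target (0.88), followed by Serpina6 and Parp16 (0.78 and 0.77). Srebf2 was most like Mvk, mevalonate kinase and a listed sterol target (0.82), followed by Cyb5r3 and Ctsa (0.77 and 0.76). Tars (0.82) and Clpx (0.77), neither of them on a target list, were among those most like Insig2. Scap was most like Plxnb2 (0.89), Gfra1 and Ndst1 (0.86 each), and Rxra most like Sidt2 (0.93), Slc25a23 (0.91) and Furin (0.91). For Mbtps1 (Mrps2, Mlf2 and March8), Mbtps2 (Pdpk1, Manea and Cyb5d2) and Nfya (Tspan31, Alkbh6 and Grasp) the highest r was 0.75, 0.75 and 0.79. All points share the normalization of the arrays.

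The members also differed in how much they varied between mice of the same group. The SD within groups on the log2 scale was 0.44 for Srebf1, 0.40 for Insig2 and 0.39 for Insig1, above that of 94%, 92% and 91.2% of the genes at or above the median level. It was 0.29 for Scap, 0.27 for Rxra, 0.25 for Srebf2, 0.23 for Nfya, 0.21 for Mbtps2 and 0.16 for Mbtps1, whose spread exceeded that of 15.7% of those genes.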

How the data were processed

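Liver RNA of 32 male mice, 100 ng each, was run on whole transcript arrays (Affymetrix, Mouse Gene 1.1 ST). The authors ran the robust multichip average (RMA) through MADMAX, kept a single probe set for each Entrez gene, and deposited the resulting intensity of 21115 probe sets as linear values. limma is also named in the submitters' processing notes; versions and the genome build are not given in the sources used here. Separate tables held the same arrays and differed by at most 7.15e-10 on the log2 scale: 1 gave the replicate number of each mouse, the other the gene names and the array names, whose prefix defines the array series. Columns with the authors' own fold changes, p-values and q-values were not used.

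The log2 of each intensity was fitted in R 4.3.3 with limma 3.58.1, with 1 mean per group over all 32 arrays, an intensity trend in the prior and no filter on low values. The Benjamini-Hochberg adjustment ran over every gene tested. The study criterion was an unadjusted limma P under 0.05 with a fold change over 1.2. The methods call the test paired; the pairs are not given, so mice were compared as independent. Exact permutation tests covered single members in the diet and age comparisons. Correlations and promoter letters (RefSeq, GRCm38.p6) were computed in Python, with 17 windows matched to the 9 members. The limma fit was tested on simulated arrays with known changes.

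The 9 members were named throughout. Of each pathway list, up to 3 genes of smallest P at each age were named, with Nr1h4 and the clock genes of a list counted under it. For each member, the 3 most alike genes by Pearson r over mice were named. Some genes that these rules name are not reported here. The members and lists were chosen with earlier results of these data known. Idi1 of the sterol list was not matched, nor were the markers Amy2b, Adgre1, Hba-a1 and Hbb-b1. Alternatives were other priors, sets of arrays, filters, normalization, array weights, thresholds, the exact test, each mouse left out, the replicate number or array series as a block, each array series alone and the clock phase as a covariate. Leaving out the 3 mice with skeletal muscle markers was chosen after seeing the data. The number of arrays limits the precision.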

Additional observations from a re-analysis of the deposited data

Results flagged for a closer look

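In 3 of the 36 combinations of a member and a group, 1 mouse stood apart from the others by Dixon's test at the 95% level, which by chance happens in about 1 of 20 groups. Insig1 was 9.63 on the log2 scale in HF/HF replicate 4 of 12 weeks, with the next mouse at 8.90. Mbtps1 was 6.34 in HF/HF replicate 9 of 28 weeks, with the next at 6.54. Mbtps2 was 4.48 in HF/HF replicate 1 of 12 weeks, with the next at 4.87. The effect of parental diet differed between the ages for 2 members by the test of the difference itself in limma. The difference was 0.27 on the log2 scale for Mbtps1 (SE 0.12) and 0.53 for Rxra (SE 0.18), and neither passed adjustment over all genes (adjusted p = 0.974 for both).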

How the results depend on the processing

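The number of members that met the study criterion was 2 at 12 weeks, 1 at 28 weeks, 2 for the difference between the ages, 1 for age in HF/HF offspring and 4 for age in LF/HF offspring. These counts depended on the settings. With no limit on the fold change, 2 were called at 28 weeks. At P under 0.01, also with no limit on the fold change, the counts were 1 at 12 weeks, 1 at 28 weeks (Mbtps1 in place of Rxra), 1 for the difference, 0 for age in HF/HF offspring and 2 for age in LF/HF. With the clock phase as a covariate 0 were called at 12 weeks, 1 for the difference and 0 for age in HF/HF offspring. With the array series as a block 1 was called for the difference. In array series 1 alone the counts were 1 at 12 weeks, 2 at 28 weeks, 1 for the difference, 0 for age in HF/HF offspring and 2 for age in LF/HF, and in series 2 alone they were 1 at 12 weeks and 0 at 28 weeks. Without the mice with muscle markers 1 was called at 12 weeks and 0 for age in HF/HF offspring, with array weights 0 for age in HF/HF offspring, and by the exact permutation test 1 at 12 weeks. Leaving out each mouse in turn gave 1 to 3 at 12 weeks, 0 to 2 at 28 weeks, 1 to 2 for the difference, 0 to 3 for age in HF/HF offspring and 2 to 5 for age in LF/HF. Of the other 49 counts, 47 were the same as with the main settings. In the rest a member was added: Insig2 for the difference in series 2 alone, and Mbtps1 for age in LF/HF with no limit on the fold change. An equal count did not always mean the same genes. For age in series 2 alone, Insig2 was called in place of Srebf1 in HF/HF offspring and Mbtps1 in place of Insig1 in LF/HF. For age in LF/HF offspring Mbtps1 also took the place of Srebf1 without the muscle-marked mice and of Insig1 with array weights.

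Some log2 fold changes changed sign. The largest main values among them were those of Insig2, at -0.3011 for age in HF/HF and -0.2392 for the difference. With the clock phase they were 0.045 for Insig1 and 0.0194 for Mbtps1 at 12 weeks, 0.1211 for Insig2 for the difference, 0.1666 for Insig2, -0.0386 for Mbtps1, -0.1012 for Nfya and -0.055 for Rxra for age in HF/HF, and 0.0455 for Insig2 in LF/HF offspring. In array series 1 alone they were 0.1048 for Insig1 and 0.1193 for Mbtps1 at 12 weeks, 0.2082 for Srebf1 and 0.0039 for Nfya at 28 weeks, 0.1562 for Srebf1 and 0.0116 for Insig2 for the difference, 0.0051 for Mbtps2 for age in HF/HF and 0.1101 for Srebf2 in LF/HF offspring. In series 2 alone they were -0.0244 for Srebf1 at 12 weeks, -0.048 for Srebf2 and -0.1326 for Insig2 at 28 weeks, -0.1182 for Nfya for age in HF/HF and 0.1685 for Insig2 in LF/HF offspring. Cyclic loess gave 0.001 for Srebf2 for age in LF/HF, array weights -0.0065 for Srebf1 at 12 weeks, the array series as a block 0.0 for Srebf1 at 28 weeks, and the fit without muscle-marked mice 0.0237 for Srebf1 and -0.0147 for Srebf2 at 28 weeks. Leaving out each mouse in turn changed the sign of 11 values, 9 of them among those above, whose ranges were -0.1016 to 0.0194 for Mbtps1 at 12 weeks, -0.0099 to 0.0599 for Mbtps1 for age in HF/HF, -0.1037 to 0.0935 for Srebf1 at 12 weeks, -0.156 to 0.094 for Srebf1 for the difference, -0.1464 to 0.071 for Insig2 for age in LF/HF, -0.2167 to 0.0145 for Insig1 for the difference, -0.0487 to 0.06 for Srebf2 at 28 weeks, -0.1382 to 0.0758 for Srebf1 at 28 weeks, -0.0786 to 0.0441 for Srebf2 for age in LF/HF, -0.0898 to 0.0114 for Mbtps2 at 28 weeks and -0.1218 to 0.0051 for Mbtps2 for age in HF/HF. The cause of these changes was not tested.

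Mice with the same replicate number did not deviate together: over all genes the correlation of their deviations ran from -0.16 to 0.105 in 7 pairs of 12 weeks and from -0.0963 to 0.103 in 9 pairs of 28 weeks, and 0 and 1 of these were the highest for that mouse. With the replicate number as a block 2 members were called at 12 weeks, 1 at 28 weeks and 2 for the difference, the same genes as without it. For age within a diet group this block could not be fitted, since the numbers pair mice only within an age. Only the arrays of 2 groups could not be used for the difference between the ages, which needs all 4.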
